A study of Capra hircus with 11 samples.

Results

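The proteasome genes of goat (Capra hircus) were followed through a direct conversion of ear fibroblasts into mammary epithelial cells by small molecules. Members were taken by name: a gene row belonged to the set if its symbol began with PSMA to PSMG followed by a number, and 48 of 16678 gene rows did. Of these, 47 encode proteasome subunits, regulators or assembly factors: 15 constitutive core subunits, 3 immunoproteasome subunits, 17 cap subunits, 2 genes of the PA28 alpha-beta activator, 3 other regulators and 7 assembly factors. The remaining match, PSMC3IP, encodes a recombination factor that only shares the prefix, and it was left out of all counts. All 47 genes were listed in every table. PSMB11, the subunit of the thymus form, was not among the rows used.

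The proteasome is the barrel-shaped protease that degrades proteins marked with ubiquitin. Its core is built of stacked rings of alpha and beta subunits, of which PSMB5, PSMB6 and PSMB7 carry the constitutive catalytic sites. The cap recognises ubiquitin, unfolds the substrate with a ring of ATPases (PSMC genes) and feeds it into the core. In immune cells, and in other cells under interferon gamma, PSMB8, PSMB9 and PSMB10 are built in instead of PSMB5, PSMB6 and PSMB7, which gives the immunoproteasome and shifts the peptides made for display on MHC class I. PSME1 and PSME2 form the interferon-inducible PA28 alpha-beta activator, and the PSMG genes encode chaperones that help the core to assemble.

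The study compared 5 groups by droplet single-cell RNA sequencing with a 3′ kit. BFRTV0d held ear fibroblasts before induction (day 0, 3 samples), BFRTV4d the same cells after 4 days in a medium called BFRTV (3 samples) and BFRTV8d after 8 days (2 samples). CiMECs (1 sample) were day-8 cells passaged on in a medium for goat mammary epithelial cells, and GMECs (2 samples) were mammary epithelial cells derived from goats without conversion, the reference for the converted cells. The plates of the converted cells were coated with Matrigel, and no genotype, animal or clone was given in the labels. The labels named 11 samples, but each group was deposited as 1 table whose cell names carry no sample, so each group was treated as 1 library; whether its samples were separate libraries is not stated in the labels. There was therefore no replicate, no test and no p-value: a difference is one between libraries, which need not be one between conditions, and the ranges in parentheses are exact 95% intervals that cover counting error only.

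The tables held 10670 (BFRTV0d), 10203 (BFRTV4d), 10152 (BFRTV8d), 5188 (CiMECs) and 5641 (GMECs) cell barcodes and between 72177482 and 117500853 UMIs once ribosomal protein genes were set aside. All levels are in CPM, the UMIs of a gene summed over all barcodes and divided per 1000000 UMIs of the table without ribosomal protein genes. Of these, 74 were listed for CiMECs and GMECs (25.6% and 35.0% of the UMIs) and 0 in the BFRTV tables, and barcodes went down to 500 UMIs in the former and to 1951 UMIs in the latter. In comparisons that cross these table sets, group and table set cannot be told apart. In the labelled fibroblasts of BFRTV0d, 11 mesenchymal markers, mostly collagens, summed to 11876 CPM and 12 epithelial markers to 1153 CPM. In BFRTV8d 10 and 12 of these were listed and gave 305 CPM and 13194 CPM, and in GMECs 1 and 11 gave 0.610 CPM and 13330 CPM. Of 10 immune markers only 2 to 5 were listed in a table. They summed to between 3.42 and 8.33 CPM in every table and none reached 10 CPM. Of 5 endothelial markers 1 or 2 were listed, and they summed to at most 3.01 CPM. Between 37 and 147 barcodes were shared by any pair of tables.

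On the CPM scale the sum of the 47 genes was nearly the same through the induction and higher in both mammary cell tables, although with ribosomal protein genes in the totals GMECs lay just below BFRTV0d (log2 fold -0.042). The sums were 6796 CPM at day 0, 7000 at day 4, 6662 at day 8, 11297 in CiMECs and 10154 in GMECs. TMM and median-of-ratios factors, which scale the tables by the bulk of their genes, put BFRTV8d above BFRTV0d (log2 fold 0.14 with either) where CPM put it just below (-0.03). With TMM the median of all genes shifted, in log2, by 0.23, -0.07 and 0.20 for day 4 against 0, 8 against 4 and 8 against 0, and by 0.87, 0.48 and 0.50 for CiMECs against BFRTV8d, CiMECs against GMECs and GMECs against BFRTV0d, so differences in CPM smaller than these depend on the scaling. In single cells with at least 3000 UMIs, the median share of UMIs in these genes was 0.637%, 0.641%, 0.648%, 1.09% and 0.954% in the same order. This limit left out 0, 45, 8, 938 and 961 barcodes, so mostly those of CiMECs and GMECs. In sums over cells, a change in which cells are present and a change in the RNA of each cell cannot be told apart. Behind this sum the classes differed: in BFRTV8d against BFRTV0d the 3 immunoproteasome subunits were 2.75-fold higher in sum (2.70 to 2.80), PA28 alpha-beta 2.60-fold higher (2.56 to 2.64) and the constitutive core 1.22-fold higher (1.21 to 1.22), whereas the cap was 1.45-fold lower (1.44 to 1.46) and the assembly factors 1.68-fold lower (1.66 to 1.69). All genes had a median log2 fold of -0.29 in this comparison. Without PSMD8 the cap was 1.26-fold lower, and without PSMG4 the assembly factors were 1.36-fold lower.

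**Figure D1:**
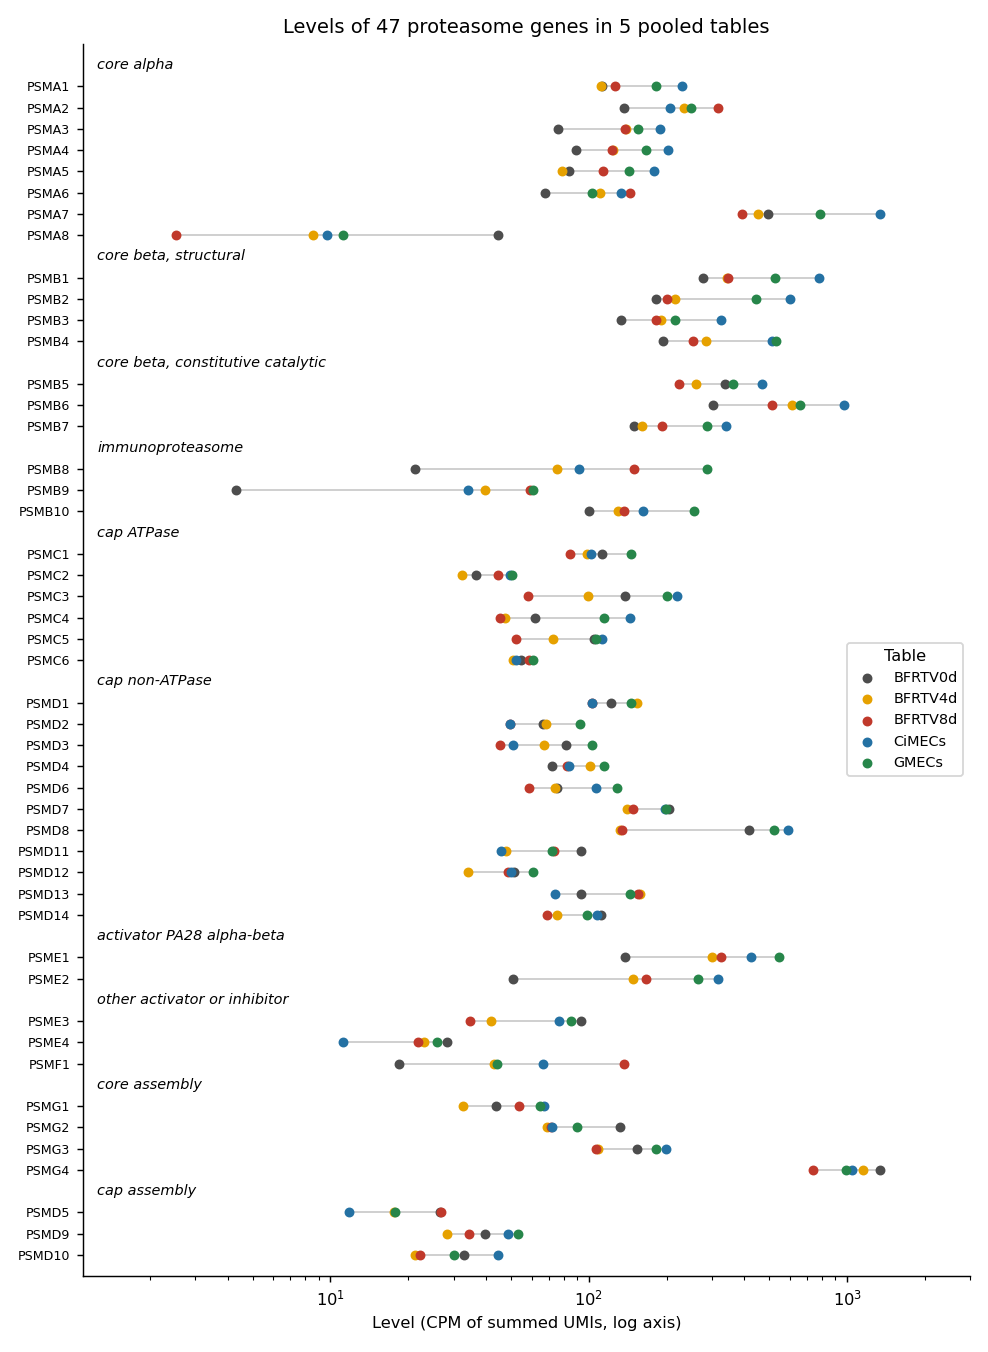
Level of each of the 47 proteasome genes (CPM of summed UMIs, log axis) in the 5 pooled tables, grouped by class; each point is 1 table and the grey line spans the lowest to the highest. PSMA8, PSMB9, PSMB8 and PSMF1 spread over the widest ranges, from 7.39-fold to 17.7-fold, and PSMC6 over the narrowest, 50.9 to 61.0 CPM.

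The members differed widely in how far their levels ranged over the 5 tables. The widest ranges were those of PSMA8 (17.7-fold between the highest and the lowest table), PSMB9 (14.1-fold), PSMB8 (13.4-fold), PSMF1 (7.39-fold), PSME2 (6.20-fold) and PSMD8 (4.47-fold). The narrowest were those of the cap ATPase PSMC6 (50.9 to 61.0 CPM) and the cap subunit PSMD7 (140.5 to 204.3 CPM). The highest level lay in CiMECs for 19 genes and in GMECs for 14, and the lowest lay in BFRTV0d for 17, in BFRTV8d for 14 and in GMECs for 0. These ranges and counts are in CPM only. They were not repeated under the other scalings, which shift CiMECs, GMECs and the BFRTV tables against each other.

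Counts of genes at least 2-fold apart cover genes that reached 10 CPM in either table, and each is set beside the same count over all such genes. In BFRTV4d against BFRTV0d, 6 of 47 proteasome genes (12.8%) were at least 2-fold higher and 3 (6.38%) lower, against 13.4% and 25.4% of all genes. The higher genes were PSMB9, PSMB8, PSME2, PSMF1, PSME1 and PSMB6, and the lower ones PSMA8, PSMD8 and PSME3. TMM factors gave 7 higher and 2 lower, and median-of-ratios factors 8 and 2. The share higher was near that of all genes, and the share lower was below it.

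Few members differed between the later induction tables. In BFRTV8d against BFRTV4d, 1 of 46 (2.17%) was higher (PSMF1) and 0 lower, against 10.7% and 7.1% of all genes. In BFRTV8d against BFRTV0d, 7 of 47 (14.9%) were higher and 4 (8.51%) lower, against 19.7% and 28%; PSMA2 and PSMA6 joined the higher genes, PSMB6 left them, and PSMC3 joined the lower ones. The median log2 fold of the members was -0.10, 0.00 and 0.02 for day 4 against 0, 8 against 4 and 8 against 0, where all genes had -0.39, 0.12 and -0.29; the first turned positive with TMM (0.10) and median-of-ratios factors (0.13).

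In CPM, more members were at least 2-fold higher than lower in the comparisons that cross the table sets. With ribosomal protein genes in the totals this did not hold. In GMECs against BFRTV0d, 10 of 47 (21.3%) were higher and 1 (2.13%, PSMA8) lower, against 12% and 31% of all genes; with ribosomal protein genes in the totals the counts were 4 and 4. CiMECs against BFRTV8d gave 11 of 46 higher (23.9%) and 3 lower (6.52%: PSMD5, PSMD13 and PSMF1), against 9.94% and 43.3%; TMM factors gave 29 and 0, median-of-ratios factors 30 and 0, totals with ribosomal protein genes 5 and 8, and every cell weighing the same 9 and 1. Within the table set of mammary cells, CiMECs against GMECs gave 0 of 47 higher and 3 lower (6.38%: PSMB8, PSME4 and PSMD3), against 5.53% and 26%, while TMM gave 5 higher and 1 lower and median-of-ratios factors 6 and 1. The members' median log2 folds in these comparisons were 0.56, 0.47 and -0.01, and those of all genes -0.50, -0.78 and -0.51. Over the other scalings, filters and weightings tried the members' median stayed above that of all genes, by 0.36 to 1.29. A scaling moves all genes of a comparison alike, so it can change this gap only through the 10 CPM limit. With every cell weighing the same the gap was 1.13, 1.17 and 0.36 in the same order. The members' median itself changed sign for GMECs against BFRTV0d with ribosomal protein genes in the totals (-0.062). For CiMECs against GMECs it turned positive with TMM (0.43), median-of-ratios factors (0.53) and ribosomal protein genes in the totals (0.22).

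**Figure D2:**
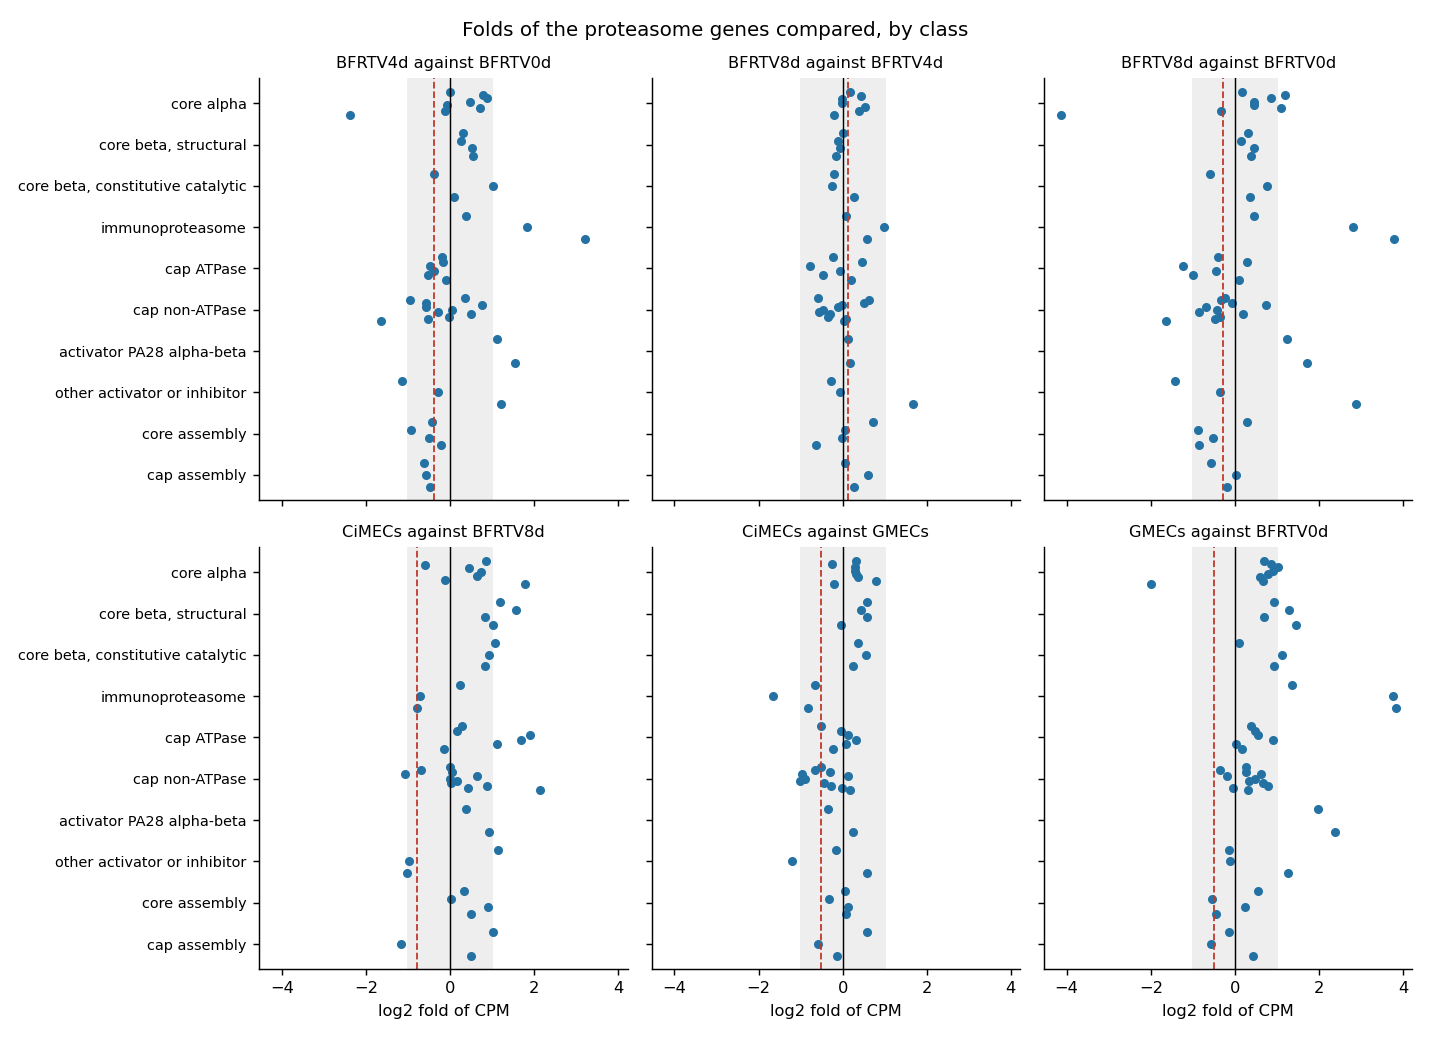
Log2 folds of CPM of the proteasome genes compared (points, 1 per gene), by class, in the 6 comparisons; the grey band spans less than 2-fold, the black line marks equal levels and the dashed line the median of all genes compared. During induction the points outside the band to the right belong to the immunoproteasome, PA28 alpha-beta, PSMF1 and a few core subunits, and PSMA8 lies at a log2 fold of -4.14 in BFRTV8d against BFRTV0d.

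Of the catalytic genes, PSMB8 and PSMB9 had the widest ranges over the tables. PSMB8 (gene22897), the subunit that takes the place of PSMB5, had 21.3 CPM at day 0, 75.2 at day 4, 149.6 at day 8, 91.2 in CiMECs and 286.5 in GMECs. These levels are all separate beyond counting error, and the order in CPM ran from fibroblasts through day 4, CiMECs and day 8 to GMECs; the step between CiMECs and day 8 was smaller, in log2, than the shift that TMM makes between those tables. PSMB8 was 3.52-fold higher (3.37 to 3.69) in BFRTV4d than in BFRTV0d and 1.99-fold higher (1.94 to 2.05) in BFRTV8d than in BFRTV4d, just inside the 2-fold limit. CiMECs had 3.14-fold less PSMB8 (3.05 to 3.23) than GMECs.

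PSMB9 (gene22895), which takes the place of PSMB6, was the least abundant of the catalytic genes in each table. It had 4.29 CPM at day 0, 39.7 at day 4, 59.1 at day 8, 34.0 in CiMECs and 60.7 in GMECs. The intervals of BFRTV8d (57.7 to 60.6) and GMECs (58.9 to 62.5) overlap, so their order is not resolved. PSMB9 was 9.25-fold higher (8.43 to 10.2) after 4 days and 13.8-fold higher (12.6 to 15.1) after 8 days than before induction, and CiMECs held 1.78-fold less (1.70 to 1.87) than GMECs.

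PSMB10 (gene17575), which takes the place of PSMB7, differed less. It was already at 100.1 CPM at day 0 and had 129.8 CPM at day 4, 136.9 at day 8, 161.7 in CiMECs and 255.5 in GMECs. At 1.37-fold (1.33 to 1.40), its difference between BFRTV8d and BFRTV0d was far smaller than those of PSMB8 and PSMB9. As a sum, the immunoproteasome subunits had 126 CPM in BFRTV0d, 345.6 in BFRTV8d, 287.0 in CiMECs and 602.7 in GMECs; the lower sum in CiMECs than in BFRTV8d became a higher one under TMM or median-of-ratios scaling.

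The constitutive partners did not differ in one direction. PSMB5 was lower at each later day, with 337.4 CPM at day 0, 258.8 at day 4 and 223.1 at day 8, and it had 467.0 CPM in CiMECs and 362.0 in GMECs. PSMB6, by contrast, had 302.9 CPM at day 0, 612.8 at day 4, 513.8 at day 8, 968.2 in CiMECs and 655.2 in GMECs. The values of PSMB7 were 150.2, 160.0, 191.6, 338.9 and 285.4 CPM in the same order of tables.

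Ratios within 1 table need no scaling between tables, and they show how far each immunoproteasome subunit approached its partner. For PSMB8 to PSMB5 the ratio of UMIs was 0.0632 at day 0, 0.290 at day 4, 0.671 at day 8, 0.195 in CiMECs and 0.792 in GMECs. For PSMB9 to PSMB6 it was 0.0142, 0.0648, 0.115, 0.0351 and 0.0926. The ratio of PSMB10 to PSMB7 was 0.666, 0.811, 0.714, 0.477 and 0.895. All 3 ratios were higher in GMECs than in CiMECs with intervals that do not overlap. The first and second were higher at each later day of induction, while the third stayed between 0.666 and 0.811. Capture can differ between genes, so a ratio is read between tables and not as a share of assembled particles.

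**Figure D3:**
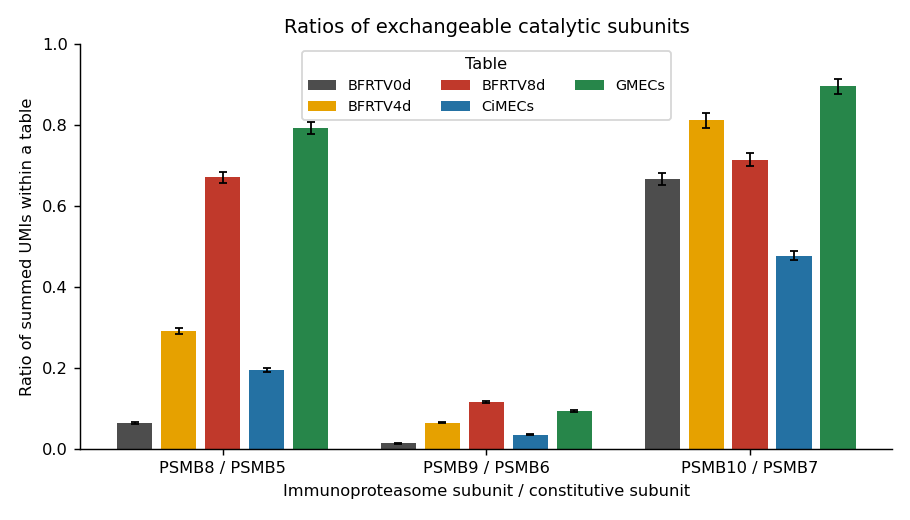
Ratio of summed UMIs of each immunoproteasome subunit to the constitutive subunit it replaces, within each pooled table (bars), with exact 95% counting intervals. The PSMB8 to PSMB5 ratio went from 0.0632 in BFRTV0d to 0.671 in BFRTV8d and was 0.195 in CiMECs against 0.792 in GMECs.

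The PA28 alpha-beta activator genes were higher after induction, and most of the difference was present by day 4. PSME1 had 138.2 CPM at day 0, 299.9 at day 4, 325.6 at day 8, 423.6 in CiMECs and 543.3 in GMECs. PSME2 had 50.9, 148.1, 166.3, 315.7 and 265.2 CPM in the same tables. Both genes were thus lowest in fibroblasts, and in CPM PSME1 was highest in GMECs and PSME2 in CiMECs. The PSME1 step between CiMECs and GMECs was smaller, in log2, than the shift that TMM makes between those tables. The summed PA28 alpha-beta, lower in CiMECs than in GMECs in CPM, became higher under TMM or median-of-ratios scaling. In BFRTV4d, PSME1 was 2.17-fold (2.13 to 2.21) and PSME2 2.91-fold higher (2.82 to 3.00) than in BFRTV0d, and in BFRTV8d they were only 1.09-fold and 1.12-fold higher than in BFRTV4d. RefSeq's gene models of the goat assembly ARS1.2 place EMC9 between PSME1 and PSME2, and EMC9 overlaps PSME1, so reads near that end cannot be assigned with certainty; whether counting used the strand is not given in the sources used here.

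The other regulators differed in opposite directions. PSMF1, which encodes the inhibitor PI31, had 18.5 CPM at day 0, 42.9 at day 4, 136.5 at day 8, 66.5 in CiMECs and 44.1 in GMECs. It was 7.39-fold higher (7.06 to 7.73) in BFRTV8d than in BFRTV0d, and it was the only member at least 2-fold higher in BFRTV8d than in BFRTV4d. PSME3, the nuclear PA28 gamma activator, had 93.4, 41.8, 34.6, 76.6 and 85.1 CPM, and was 2.70-fold lower (2.60 to 2.80) in BFRTV8d than in BFRTV0d. PSME4, the PA200 activator, stayed between 21.9 and 28.2 CPM except in CiMECs, where it had 11.2 CPM, 2.32-fold less (2.13 to 2.52) than in GMECs.

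Most constitutive core genes differed by less than 2-fold during induction. PSMA7 had the highest level of the alpha genes in each table, with 493.1 CPM at day 0, 453.1 at day 4, 392.7 at day 8, 1345 in CiMECs and 782.2 in GMECs. PSMA2 had 137.1, 234.6, 315.5, 206.7 and 247.8 CPM and PSMA6 67.9, 110.8, 144.2, 133.2 and 102.9 CPM, the 2 alpha genes at least 2-fold higher in BFRTV8d than in BFRTV0d. The structural beta gene PSMB2 was among the widest between table sets, with 181.4, 215.9, 201.3, 599.4 and 442.0 CPM. Against GMECs, 12 of the 15 core genes were higher in CiMECs in CPM, the sum being 1.35-fold higher (1.34 to 1.36), and none was 2-fold apart. All genes had a median log2 fold of -0.51 there. Counts at 2-fold depend on the scaling, as TMM gave 5 of all 47 members higher where CPM gave 0.

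PSMA8, the alpha subunit known from the germline and a close relative of PSMA7, stood apart from the other core genes. It had 44.6 CPM at day 0, 8.52 at day 4, 2.53 at day 8, 9.72 in CiMECs and 11.2 in GMECs, so that fibroblasts held 17.7-fold more (15.6 to 20.1) than BFRTV8d. PSMA8 overlaps SS18 in the ARS1.2 gene models, and reads shared with PSMA7 could not be checked, so its identity as the source of these reads is uncertain. PSMC3IP, the match that is no subunit, had a similar course at 31.1, 4.53, 1.248, 3.42 and 10.6 CPM.

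The cap genes were lower as a group during induction. Their sum was 1894 CPM at day 0, 1451 at day 4, 1311 at day 8, 2138 in CiMECs and 2360 in GMECs. Of the 17 genes, 13 were lower in BFRTV4d and 13 in BFRTV8d than in BFRTV0d, but all genes were also lower by 0.39 and 0.29 in the median (log2), and the cap's median lay 0.11 above and 0.12 below that. PSMD8, a non-ATPase subunit of the lid, carried much of the sum with 417.0 CPM at day 0, 132.0 at day 4, 134.1 at day 8, 589.5 in CiMECs and 520.0 in GMECs. Without PSMD8 the cap still had 1478, 1319 and 1177 CPM through the induction.

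Among the ATPases, PSMC3 had 137.5, 99.2, 58.4, 218.9 and 201.1 CPM in the order of tables and was 2.35-fold lower (2.29 to 2.43) in BFRTV8d than in BFRTV0d. PSMC2, the least abundant cap gene in 4 of the 5 tables, ranged only from 32.2 to 50.5 CPM. PSMD13, another lid subunit, went against the group with 93.7, 157.2, 155.5, 73.9 and 144.7 CPM. PSMD3, also of the lid, was 2.03-fold lower (1.96 to 2.12) in CiMECs (50.7 CPM) than in GMECs (103.1 CPM).

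The ratio of core to cap transcripts differed between all tables. Summed constitutive core UMIs were 1.41-fold the cap UMIs in BFRTV0d, 2.29-fold in BFRTV4d, 2.49-fold in BFRTV8d, 3.03-fold in CiMECs and 2.04-fold in GMECs. Without PSMA7 in the core and PSMD8 in the cap the ratios were 1.48, 2.18, 2.44, 3.32 and 2.19, so BFRTV4d and GMECs lay close together and the order of the others was the same. In sums alone, the cap was 1.104-fold lower (1.097 to 1.112) in CiMECs than in GMECs, which became a higher level under TMM or median-of-ratios scaling and with ribosomal protein genes in the totals.

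Assembly genes were lower in both later induction tables than in BFRTV0d as a sum. PSMG4, a chaperone of the core, was the most abundant member in BFRTV0d (1339 CPM), BFRTV4d (1148 CPM), BFRTV8d (739 CPM) and GMECs (985 CPM), and in CiMECs it had 1048 CPM, next to PSMA7. The other PSMG chaperones were much lower, from 32.6 CPM (PSMG1 in BFRTV4d) to 199.4 CPM (PSMG3 in CiMECs). Without PSMG4 the assembly sum was 429 CPM at day 0, 277 at day 4 and 316 at day 8. It was then 1.36-fold lower (1.34 to 1.38) in BFRTV8d than in BFRTV0d, against 1.68-fold with PSMG4, and higher at day 8 than at day 4. PSMG2 had 132.2 CPM in BFRTV0d and 69.0 and 71.4 CPM at days 4 and 8. Of the cap chaperones, PSMD5 had 26.5, 17.6, 26.8, 11.8 and 17.8 CPM and PSMD10 32.9, 21.3, 22.1, 44.6 and 30.0 CPM. Counts at the 3′ end do not scale with transcript length, but levels of different genes still depend on how well each end is captured.

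To see the members inside cell populations that were changing in size, cells with at least 3000 UMIs were thinned to that number and marked by at least 2 UMIs of the epithelial markers and fewer than 2 of the mesenchymal markers, or the reverse. Epithelial-marked cells numbered 366 of 10670 in BFRTV0d, 4176 of 10158 in BFRTV4d and 9471 of 10144 in BFRTV8d. Mesenchymal-marked cells numbered 9681, 3422 and 98. These are ranges of a marker sum and not cell types: 1609, 2464 and 147 cells lay near the epithelial limit with 1 or 2 such UMIs. Cells with both marks (618, 2554 and 574) were left out here, no doublet caller was run, and the part of doublets and of free RNA was not tested. Median UMIs were 15918 in the epithelial-marked and 9892 in the mesenchymal-marked cells of BFRTV0d, and 9520 and 9388 in those of BFRTV4d.

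Epithelial-marked cells held more proteasome transcripts than mesenchymal-marked cells in BFRTV0d and BFRTV4d. In BFRTV0d, 13 of 47 genes were at least 2-fold higher in epithelial-marked cells and 0 lower, against 11.5% and 17.7% of all genes. In BFRTV4d, 19 of 46 were higher and 0 lower, against 28.3% and 9.37%. The median log2 difference of the members was 0.75 and 0.85, where all genes had -0.26 and 0.53. No such excess over all genes was seen in BFRTV8d, where the mesenchymal-marked cells numbered 98 and the median was 0.30 for the members and 0.32 for all genes. Summed over the constitutive core the levels were 4640 against 2446 CPM in BFRTV0d, 1.90-fold higher (1.87 to 1.92), and 4368 against 2376 CPM in BFRTV4d, 1.84-fold higher (1.82 to 1.85). The summed assembly factors, by contrast, were 1.04-fold lower (1.02 to 1.06) in epithelial-marked cells of BFRTV0d and 1.02-fold higher (1.01 to 1.03) in those of BFRTV4d. PSMG4 made up most of this sum in the whole tables (1339 of 1768 CPM in BFRTV0d). The sum without it is not given for these cells.

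PSMB9 showed the widest gap between these cells. In BFRTV4d it had 74.0 CPM in epithelial-marked and 5.49 CPM in mesenchymal-marked cells, a 13.5-fold difference (11.6 to 15.7), while BFRTV0d gave 12.3 against 2.93 CPM (4.19-fold, 3.25 to 5.36). PSMB8 had 105 against 43.8 CPM in BFRTV4d (2.41-fold, 2.27 to 2.55) and 53.3 against 17.2 CPM in BFRTV0d (3.10-fold, 2.76 to 3.47). PSMB10 did not follow them: its 124 CPM in epithelial-marked cells of BFRTV4d lay 1.08-fold below (1.03 to 1.12) the 134 CPM of mesenchymal-marked cells, a difference that changed sign when cells were marked without thinning, and in BFRTV0d the interval included no difference (94.4 against 99.0 CPM).

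Within epithelial-marked cells the course over days differed from that of the whole tables. PSMB9 had 12.3 CPM in BFRTV0d, 74.0 (71.4 to 76.6) in BFRTV4d and 61.8 (60.2 to 63.4) in BFRTV8d, and so was lower at day 8 than at day 4, while the whole tables gave a level 1.49-fold higher (1.43 to 1.55) at day 8. PSMB8 was higher at each later day, with 53.3, 105 and 153 CPM. Both stayed higher than at day 0 in these cells as well, by 5.03-fold (4.05 to 6.31) and 2.86-fold (2.58 to 3.19) in BFRTV8d. PSMF1, with 34.8, 46.1 and 138 CPM, was the third member at least 2-fold higher in BFRTV8d than in BFRTV0d.

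The constitutive core and the cap were lower over days in these cells. Core levels were 4640, 4368 and 3308 CPM and cap levels 2694, 1836 and 1316 CPM in epithelial-marked cells of BFRTV0d, BFRTV4d and BFRTV8d, where whole tables had shown a core 1.22-fold higher at day 8. PSMB5 had 515, 331 and 225 CPM and PSMC3 238, 129 and 57.4 CPM. In BFRTV8d against BFRTV0d, 3 of 47 genes were at least 2-fold higher and 10 lower, against 18.6% and 18.3% of all genes, and the median log2 difference was -0.60 against -0.07. For BFRTV4d against BFRTV0d the counts were 1 of 47 and 3, against 14.7% and 12.6%, and for BFRTV8d against BFRTV4d 1 of 46 and 1, against 6.45% and 6.54%. The day-0 values rest on 366 cells.

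Mesenchymal-marked cells differed over the first 4 days in some of the same genes. PSMB8 had 17.2 CPM in BFRTV0d and 43.8 in BFRTV4d (2.55-fold higher, 2.38 to 2.73), PSME1 122 and 261 CPM (2.15-fold, 2.09 to 2.21) and PSME2 38.8 and 89.6 CPM (2.31-fold, 2.20 to 2.42). PSMB9 was higher too, at 2.93 and 5.49 CPM, but stayed under 10 CPM in both and was left out of the counts below. The lid subunit PSMD8, at 408 and 84.1 CPM, was 4.85-fold lower (4.67 to 5.04). Counted together, 4 of 46 genes were at least 2-fold higher and 9 lower, against 10.3% and 40% of all genes.

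**Figure D4:**
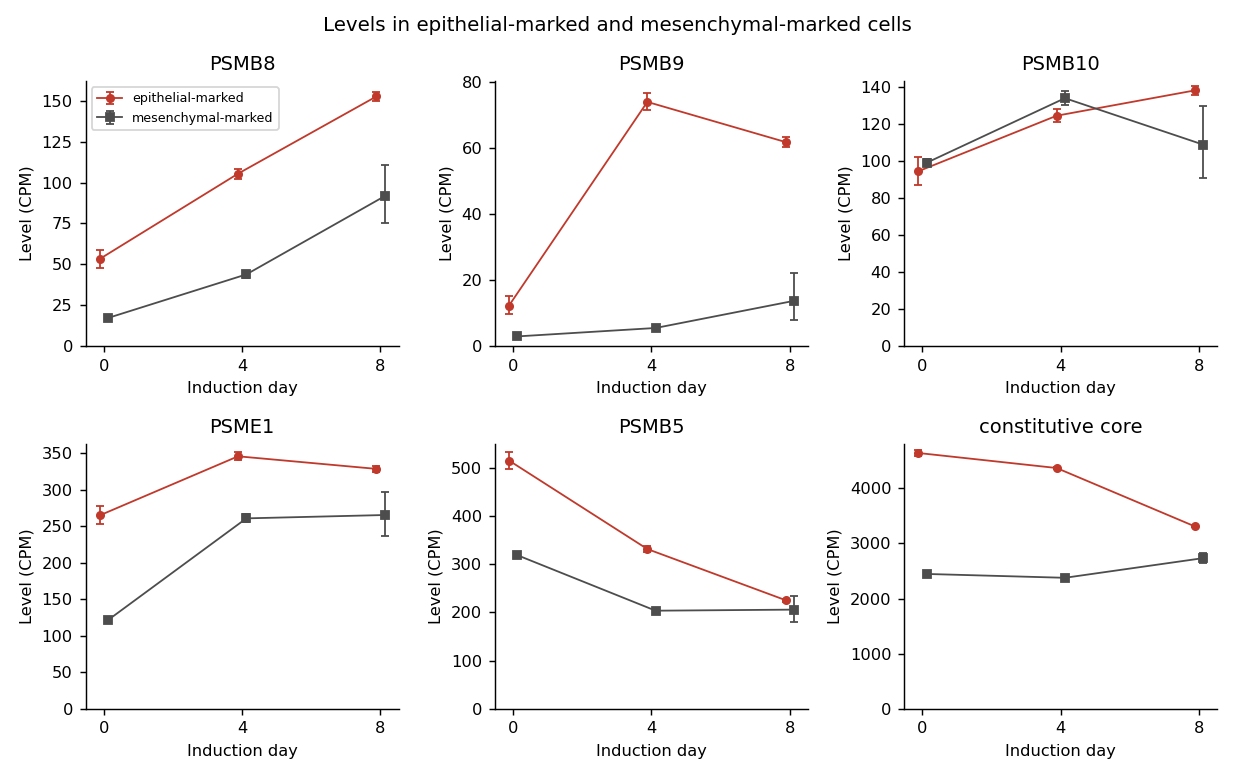
Levels (CPM) of 5 proteasome genes and of the summed constitutive core in epithelial-marked (circles) and mesenchymal-marked (squares) cells at induction days 0, 4 and 8; bars are exact 95% counting intervals, and the lines only join the points. PSMB9 reached 74.0 CPM in epithelial-marked cells at day 4 and 5.49 CPM in mesenchymal-marked cells; the day-8 mesenchymal-marked point rests on 98 cells.

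Cells marked as cycling by at least 2 UMIs of 10 cell-cycle genes were set beside cells with none. In BFRTV4d, where 2121 cells were so marked, 3 of 47 members (PSMB9, PSMD5 and PSMA5) were at least 2-fold higher and 0 lower, against 10.1% and 4.36% of all genes. The summed 47 genes were 1.31-fold higher in them (1.31 to 1.32, all 47), and between 1.08-fold and 1.14-fold higher in the other tables. All genes were also higher in the median (log2), by 0.34 in BFRTV4d, 0.02 in BFRTV0d, 0.14 in BFRTV8d and 0.21 in both CiMECs and GMECs, where the medians of the members were 0.59, 0.17, 0.13, 0.28 and 0.28. How far cycling and epithelial marks overlap in single cells was not tested.

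Interferon response genes, which share inducers with PSMB8, PSMB9 and the PA28 genes, were read beside them. ISG15, a ubiquitin-like modifier, had 26.0 CPM at day 0, 2.67 at day 4, 370.0 at day 8, 44.4 in CiMECs and 24.5 in GMECs. IFI6 had 98.2, 229, 6707, 1292 and 107 CPM. Of the 13 list genes compared, 12 were at least 2-fold higher in BFRTV8d than in BFRTV4d and 0 lower, against 10.7% and 7.1% of all genes, with a median log2 fold of 4.22 against 0.12. In BFRTV4d against BFRTV0d the list was mixed: of 6 genes compared, 2 were at least 2-fold higher (IFI6 and BST2) and 2 lower (ISG15 and IRF9), against 13.4% and 25.4% of all genes. In GMECs against BFRTV0d, 1 of 6 was higher (IRF7, 6.99-fold) and 0 lower, against 12% and 31%.

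Inside BFRTV8d no member was 2-fold apart with these genes. Cells with at least 2 UMIs of the interferon markers (5783) were compared with cells that had none (2057). Of 46 members 0 were at least 2-fold higher and 0 lower, and the same count over all genes was 0.237% in each direction. PSMB8 had 151 against 150 CPM (1.01-fold, 0.965 to 1.05) and PSMB9 60.7 against 57.5 CPM (1.05-fold, 0.986 to 1.13), so neither interval reaches beyond 1.13-fold. The marks rest on few UMIs, with 4108 of 10144 cells at 1 or 2 after thinning, so the sets may be poorly separated. PSMF1, at 151 against 109 CPM, was 1.38-fold higher (1.32 to 1.45) in the interferon-marked cells.

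Genes that act with the immunoproteasome in antigen display were also read. PSMB9, TAP1, which encodes a subunit of the peptide transporter, and PSMB8 are consecutive genes in the ARS1.2 models. TAP1 had 15.9 CPM at day 0, 8.51 at day 4, 19.6 at day 8, 5.59 in CiMECs and 9.42 in GMECs. It was 1.86-fold lower (1.72 to 2.02) in BFRTV4d than in BFRTV0d, where both of its neighbours were higher. B2M, the light chain of MHC class I, had 840, 1021, 2349, 882 and 1799 CPM, and so was lower in CiMECs than in GMECs as PSMB8, PSMB9 and PSMB10 were. In that comparison the median log2 fold of all genes was also negative, -0.51, and 26% were at least 2-fold lower. The median of the immunoproteasome genes was -0.83. Of the 9 list genes compared in BFRTV8d against BFRTV0d, 3 were at least 2-fold higher and 2 lower, against 19.7% and 28% of all genes, with a median log2 fold of 0.89 against -0.29; the chaperone CALR, at 893 and 219 CPM, was 4.07-fold lower (4.02 to 4.13).

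Partners of the proteasome outside the name rule were read over the induction as well. Of 29 partner genes compared in BFRTV4d against BFRTV0d, 0 were at least 2-fold higher and 7 lower, against 13.4% and 25.4% of all genes, so the share lower was near that of all genes. Their median log2 fold was -0.66 against -0.39 for all genes, and it was 0.22 against 0.12 in BFRTV8d against BFRTV4d and -0.51 against -0.29 in BFRTV8d against BFRTV0d. POMP, the chaperone that helps close the core, had 542.8 CPM at day 0, 259.4 at day 4, 378.2 at day 8, 602.4 in CiMECs and 420.9 in GMECs. MAFF, a small Maf partner of the transcription factors that drive proteasome genes, had 23.0 CPM in BFRTV0d and 1.52 in BFRTV4d, the widest difference of the list. In BFRTV8d, AKIRIN2, needed for nuclear import of proteasomes, was 2.80-fold higher (2.71 to 2.90) than in BFRTV4d (129 against 46.1 CPM), and ZFAND5 was 2.35-fold higher (2.29 to 2.42; 147 against 62.3 CPM).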

How the data were processed

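Goat cells of 5 groups (11 labelled samples) were measured by droplet 3′ RNA sequencing (10x Genomics, kit version 2); for BFRTV8d the design text gives 3 replicates and the labels 2. The authors deposited 1 table of UMI counts per group, unnormalized whole numbers per gene and cell barcode; the submitters' processing notes name Cell Ranger (no version) and FastQC 0.10.1, and the genome build is not given in the sources used here. Counts were summed per table and scaled to CPM over totals without ribosomal protein genes. A fold is a ratio of CPM with an exact conditional binomial 95% interval, and levels have exact Poisson intervals. Genes with at least 10 CPM in 1 of 2 sums were compared; a listed gene at 0 was set at 3 counts and an unlisted gene at the fewest cells its table lists (11 or 6). Comparisons of marked cells used genes listed in both tables. Total counts were 117500853, 106750380, 103337253, 97203521 and 111001606 UMIs.

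All members could be named; of each pathway list up to 4 members with the widest fold in a comparison were eligible. The members, gene lists and cell markers were chosen with earlier results of these data known. Symbols follow the tables, and all 48 matched RefSeq ARS1.2, used for names and neighbours only. Of these, 2 (PSMD13 and PSMG3) lay on unplaced sequence, so their neighbours were not read. Another gene overlapped 8, among them PSMD5 and PSME3 besides PSME1 and PSMA8. Alternatives were TMM factors (edgeR 4.0.16), median-of-ratios factors, other totals, filters, weights, thresholds and marking rules. They changed 1 choice at a time. Python 3.11.15, NumPy 2.4.6, SciPy 1.17.1, pandas 2.3.3 and R 4.3.3 were used, and the fold and interval code was tested on simulated data. Doublets were not removed here. One result of the partner list is not reported here.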

Additional observations from a re-analysis of the deposited data

How the results depend on the processing

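No paired analysis was possible because each group is 1 pooled table without replicate numbers, which also leaves no replicate to drop. Depth limits PSMB9 and PSMA8 where they lie under 10 CPM, and the sets of 366 and 98 cells. Restricting to barcodes of at least 2000 UMIs left the log2 folds among 48 values within their counting intervals, and the counts of genes 2-fold apart unchanged. It kept 10670 of 10670, 10202 of 10203 and 10152 of 10152 barcodes of the BFRTV tables, so it could hardly alter the induction comparisons. In CiMECs it kept 4518 of 5188 and in GMECs 4876 of 5641. Counting ribosomal protein genes enlarges only the CiMECs and GMECs totals, and the shifts under that setting follow from this. The cause of the other shifts below was not tested.

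The median log2 fold of the proteasome genes was 0.10 (TMM) and 0.13 (median of ratios) for BFRTV4d against BFRTV0d, -0.067 and -0.065 for BFRTV8d against BFRTV4d and 0.19 with either for BFRTV8d against BFRTV0d. For CiMECs against BFRTV8d it was 1.23 with TMM, 1.29 with median-of-ratios factors and 0.046 with ribosomal protein genes in the totals. CiMECs against GMECs gave 0.43, 0.53 and 0.22 under these settings and -0.15 with every cell weighing the same, and GMECs against BFRTV0d gave 1.01, 1.00, -0.062 and 0.69. Genes at least 2-fold apart numbered 2 for BFRTV8d against BFRTV4d without a minimum CPM and with every cell weighing the same, and under TMM and median-of-ratios scaling 29 and 30 (CiMECs against BFRTV8d), 6 and 7 (CiMECs against GMECs) and 26 and 24 (GMECs against BFRTV0d). At 1.5-fold the 6 comparisons, in the order of the fold plot, had 17, 7, 20, 29, 12 and 24 genes, and at 4-fold 2, 0, 4, 1, 0 and 3.

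These log2 folds of sums changed direction. All 47 genes went to 0.14 under TMM and median-of-ratios scaling for BFRTV8d against BFRTV0d and to -0.042 with ribosomal protein genes in the totals for GMECs against BFRTV0d. The immunoproteasome sum for CiMECs against BFRTV8d went to 0.48 (TMM) and 0.53 (median of ratios). For CiMECs against GMECs the cap went to 0.29, 0.39 and 0.051, and PA28 alpha-beta to 0.30, 0.40 and 0.065, with TMM, median-of-ratios factors and ribosomal protein genes in the totals. For GMECs against BFRTV0d the assembly factors went to 0.14 and 0.13 under TMM and median-of-ratios scaling, and the cap to -0.30 with ribosomal protein genes in the totals. When cells were marked without thinning, PSMB10 in BFRTV4d epithelial-marked against mesenchymal-marked cells went to 0.058, the constitutive core in BFRTV0d interferon-marked cells to 0.088 and the immunoproteasome in GMECs interferon-marked cells to -0.063. Of the other values of marked cells without thinning 50 stayed within their intervals and 31 moved without reversing, and with marks by at least 1 UMI 68 stayed and 34 moved.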
